A study of Caenorhabditis elegans with 6 samples.

Results

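The genes described here are 31 synaptic vesicle and active zone genes of *Caenorhabditis elegans*, picked by symbol from the 46904 genes of an expression table. They encode 8 proteins of the release machinery, 4 vesicle or Rab3 cycle proteins, 7 active zone scaffolds and kinases, 3 calcium channel subunits, 7 endocytosis proteins and 2 kinesins. Translating ribosome affinity purification was used, in which a tagged ribosomal protein is expressed in chosen cells and the messenger RNA bound to its ribosomes is pulled down and sequenced. Animals of the antimycin A group spent 6 h on bacteria with antimycin A at 4.5 µM, which blocks complex III of the mitochondrial respiratory chain, and those of the EtOH group spent 6 h on bacteria with ethanol. Each group had 3 libraries, and each of 3 independent experiments held 1 library of both groups. The study asked which translated messages change with learning under this stress.

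All 6 libraries came from young adults of strain CLP1481, cultured at 20 °C, and carried the extrachromosomal array twnEx675. In both groups this array holds the ribosomal protein gene *rpl-22*, fused to 3 HA tags and driven by the promoter of *tbh-1*, together with GFP driven by the promoter of *gcy-8*. An extrachromosomal array can be lost from some cells of an animal, and the number of animals behind a library is not given in the sources used here. *tbh-1* encodes the enzyme that makes octopamine from tyramine, and its promoter is known to be active in the RIC neurons and in the gonadal sheath. The labels call the sampled cells *tbh-1* expressing neurons.

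At a chemical synapse, vesicles filled with transmitter are carried along the axon by kinesins, docked at the active zone and fused with the membrane when calcium enters through voltage-gated channels. Fusion is driven by the pairing of the vesicle SNARE synaptobrevin with the membrane SNAREs syntaxin and SNAP-25, under the control of Munc18, Munc13, complexin and synaptotagmin. Vesicle membrane is then recovered by endocytosis with endophilin, synaptojanin, dynamin and clathrin adaptors. Most of these genes were first found in worms through mutants with uncoordinated movement, hence the many *unc* names.

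Values are TPM, the usual length-corrected share of a gene among the transcripts of its library, so levels of different genes can be compared. TPM hold no read counts, and the depth behind a value is unknown. A gene without signal is listed at 0, which can be a failed estimate. Of the 31 genes, 20 reached 1 TPM in at least 3 libraries and were tested, beside 11099 genes in all that passed this filter. The other 11 are given by their values, and were fitted with the rest only in fits without this filter. Fold changes are differences of mean log2(TPM + 1), which understates the change of low genes.

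The pull-down contained neuronal messages among many others. *tbh-1* stood at 2156, 2683 and 1455 TPM in antimycin A and at 1592, 1722 and 1684 TPM in EtOH, which did not differ beyond the spread of the libraries (log2 fold change 0.29 ± 0.24 SE, limma adjusted p = 0.502). The host gene of the tag, *rpl-22*, whose value sums its own and any transgene messages, ranged from 2211 to 4837 TPM. The gonadal sheath gap junction gene *inx-8* ranged from 4101 to 5465 TPM in antimycin A and from 2344 to 3761 TPM in EtOH, and the eggshell gene *perm-2* from 84249 to 100797 TPM in antimycin A and from 66560.2 to 82788 TPM in EtOH. In material of several tissues, fewer cells of a type and less RNA per cell cannot be told apart. The libraries held 10573 to 11608 genes at 1 TPM or more in antimycin A and 9951 to 11046 in EtOH, and ribosomal RNA genes took 6.10% to 19.03% of the TPM in antimycin A and 8.65% to 12.9% in EtOH.

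The 31 genes averaged from 0.0100 to 255 TPM over the 6 libraries, and a single gene, *snb-1*, the worm synaptobrevin, held about as much signal as all others together. By this average, 1 gene stood at 100 TPM or more, 8 at 10 to 100 TPM, 11 at 1 to 10 TPM and 11 below 1 TPM. Of those below 1 TPM, 4 averaged under 0.1 TPM. All 6 libraries held 1 TPM or more of 13 genes, whereas 6 genes reached 1 TPM in no library and 5 were listed at 0 in at least 1. The 31 values summed to 759, 623 and 372 TPM in antimycin A and to 515, 298 and 231 TPM in EtOH. *snb-1* alone gave 60.2%, 61.3% and 52.1% of these sums in antimycin A and 50.5%, 50.3% and 38.2% in EtOH. Without it the sums were 302, 241 and 178 TPM in antimycin A and 255, 148 and 143 TPM in EtOH, and these ranges overlapped.

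**Figure D1:**
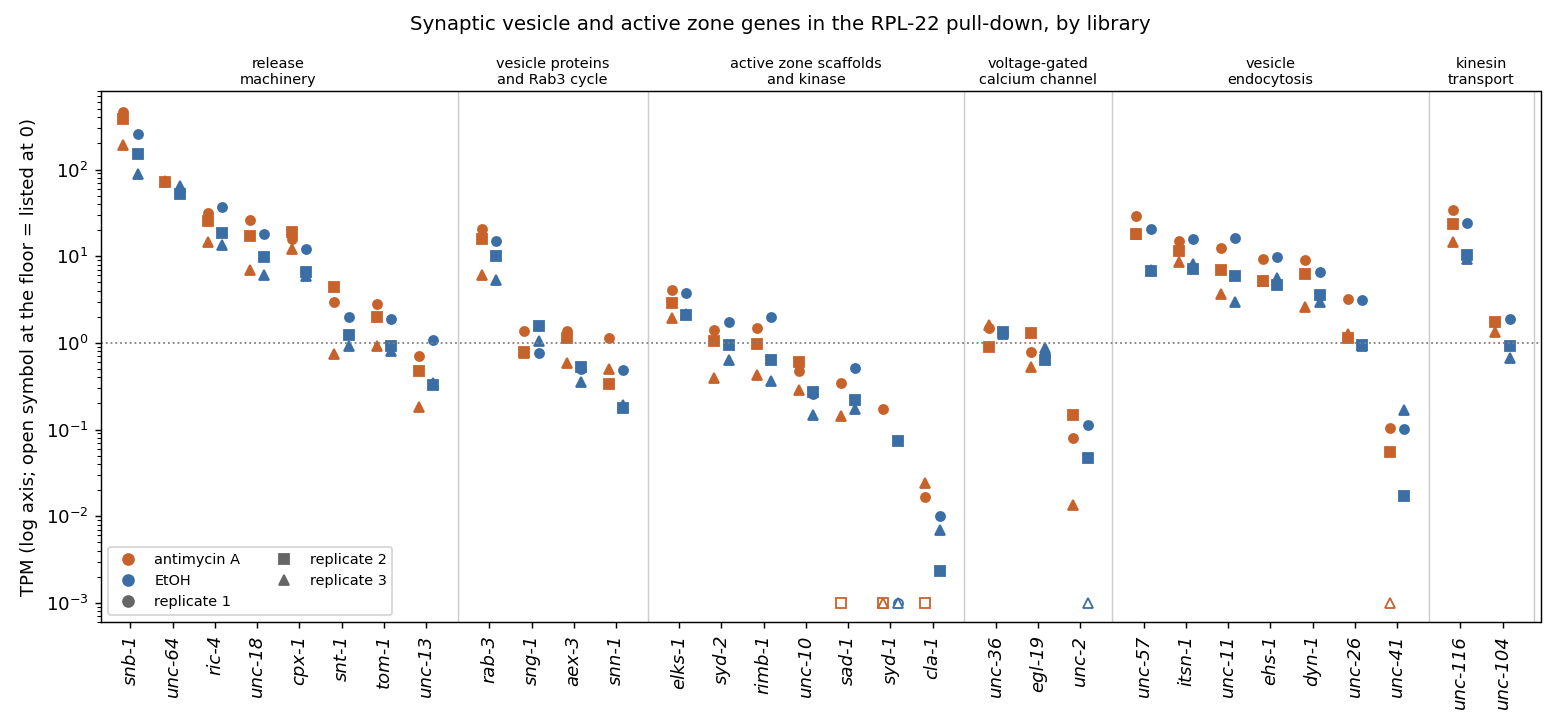
TPM of each of the 31 genes in each library on a log axis, antimycin A and EtOH libraries in separate colours, with genes grouped by role and values listed at 0 drawn as open symbols at the bottom. *snb-1* lies at 88.3 to 457 TPM, above every other gene of the set in every library, while *cla-1*, *syd-1*, *unc-2* and *unc-41* lie lowest.

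No tested gene of the set passed the test with group as the only term: 0 of 20 were called higher and 0 lower at a limma adjusted p under 0.05, where 14.2% and 6.47% of all tested genes were called. At an unadjusted p under 0.05 the count was 3, *snb-1*, *cpx-1* and *unc-57*, all higher in antimycin A, against 30.7% of all tested genes in either direction. Libraries of the same experiment deviated together, and the fit with the experiment as a block called 4 genes higher, *snb-1*, *unc-57*, *cpx-1* and *unc-116*, and 0 lower, against 29.6% and 13% of all tested genes. The authors' deposited table gives a q under 0.05 for 1 of the 31 genes, *snb-1*, with a log2 ratio of 1.05 and a q of 0.0493. Of all 46904 genes, 3.23% are higher and 2.94% lower at that limit by the authors' q. This base includes genes below the filter, so these shares are not on the base of 11099 tested genes used for the fits. Under the group-only fit the count depended on single libraries. It was 4 of 18 without EtOH replicate 1 (the same 4 genes as with the block), where 19.2% of all tested genes were called higher, and 1 of 20 without antimycin A replicate 3 (*snb-1*), against 13.7%. It was 2 of 14 without experiment 1 (*cpx-1* and *unc-57*), against 12.3%, and 1 of 19 without experiment 3 (*snb-1*), against 9.15%.

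Without the filter on low values, a fit of 18645 genes with group alone called 0 of the 31 members higher and 0 lower, against 7.38% and 3.29% of all genes fitted. The same fit with the block, added after the data were seen, called *snb-1* alone (limma adjusted p = 0.0175) and none lower, against 11.2% and 4.64%. *unc-57*, *unc-116* and *cpx-1* then missed the threshold (limma adjusted p = 0.0556, 0.0643 and 0.0936), so these 3 blocked calls rest on the filter. Of the 11 members below the filter, the lowest limma adjusted p was that of *aex-3*, 0.230 with group alone and 0.128 with the block.

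The release machinery held the genes with the highest levels. *snb-1* (V:6655562-6656501, WBcel235), the SNARE of the vesicle membrane, stood at 457, 382 and 194 TPM in antimycin A and at 260.3, 149.6 and 88.3 TPM in EtOH. The ranges overlapped, since antimycin A replicate 3 was lower than EtOH replicate 1, but in each experiment the antimycin A library was the higher. The means were 344 ± 135 TPM in antimycin A and 166 ± 87.2 TPM in EtOH (SD, n = 3 each). The log2 fold change was 1.09 ± 0.41 (SE), with a limma adjusted p of 0.0911 with group alone and 7.36e-07 with the block, and the experiments gave log2 differences of 0.81, 1.35 and 1.13. Blocked fits without each experiment in turn gave adjusted p values between 2.29e-10 and 0.00103. Such small values rest on variance that limma borrows from the other genes, because 3 pairs leave few residual degrees of freedom. Fits without an experiment leave still fewer. In every library *snb-1* ranked above 95.2% or more of the protein-coding genes.

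*unc-64* (III:13277261-13283883), the syntaxin of the plasma membrane, was the next highest and the steadiest of the abundant genes. It stood at 72.6, 71.7 and 74.6 TPM in antimycin A and at 56.9, 52.1 and 64.9 TPM in EtOH. All 3 antimycin A libraries were above all 3 EtOH libraries. Nevertheless the difference did not pass either test (log2 fold change 0.33 ± 0.20 SE, limma adjusted p = 0.324, blocked 0.0876). Groups that do not overlap, with antimycin A above, were seen for 2 of the 20 tested genes, *unc-64* and *cpx-1*, and for 23.1% of all tested genes. No tested member lay wholly below, against 11.6% of all tested genes.

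*ric-4*, the SNAP-25 type SNARE that pairs with the other two, had 31.7, 25.5 and 14.6 TPM in antimycin A and 37.3, 18.4 and 13.6 TPM in EtOH. The ranges lay within each other and the direction differed between experiments (log2 fold change 0.11 ± 0.41 SE, limma adjusted p = 0.919). The messages of the 3 SNAREs of 1 complex therefore did not keep a fixed ratio across these libraries of several tissues. Protein ratios were not measured. *ric-4* over *snb-1* was 0.0693, 0.0669 and 0.0751 in antimycin A and 0.143, 0.123 and 0.154 in EtOH. *snb-1* over *unc-64* was 6.29, 5.33 and 2.60 in antimycin A and 4.57, 2.87 and 1.36 in EtOH. The first ratio was close to constant within a group and did not overlap between groups, whereas the second ran over more than the difference between the groups; both ratios were chosen after the values were seen and were not tested.

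*cpx-1* (I:1594659-1596184) encodes complexin, which binds the assembled SNARE complex and restrains or promotes fusion. It had 15.7, 19.0045 and 12.2 TPM in antimycin A and 12.1, 6.61 and 5.89 TPM in EtOH. The groups met without overlapping, the lowest antimycin A library being just above the highest EtOH library. The means were 15.6 ± 3.40 TPM in antimycin A and 8.20 ± 3.39 TPM in EtOH (SD, n = 3 each), a log2 fold change of 0.89 ± 0.35 (SE). The limma adjusted p was 0.104 with group alone and 0.00114 with the block, and between 0.000104 and 0.0463 in blocked fits that left out 1 experiment.

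The other regulators of fusion passed neither fit. *unc-18*, the Munc18 protein that holds syntaxin, had 26.2, 17.3 and 6.95 TPM in antimycin A and 17.97, 9.75 and 6.14 TPM in EtOH (log2 fold change 0.48 ± 0.50 SE, limma adjusted p = 0.618, blocked 0.0559). Its values overlapped between the groups but were the higher in antimycin A in each experiment. The whole annotated locus of *unc-18* lies over the opposite-strand gene *pcca-1*, at a mean of 37.8 TPM, and the strand setting of the quantification is not given in the sources used here, so reads of the 2 genes may not be told apart. *snt-1*, the calcium sensor synaptotagmin, had 2.95, 4.44 and 0.748 TPM in antimycin A and 1.99, 1.23 and 0.918 TPM in EtOH (log2 fold change 0.52 ± 0.43 SE, limma adjusted p = 0.502). Without experiment 3, where *snt-1* was lower in antimycin A, the blocked fit called *snt-1* (adjusted p = 0.0410) and *unc-18* (adjusted p = 0.0365) higher, at a background of 25.3% of all tested genes called higher. *tom-1*, the tomosyn that competes with synaptobrevin, had 2.85, 1.98 and 0.925 TPM in antimycin A and 1.87, 0.923 and 0.803 TPM in EtOH (log2 fold change 0.38 ± 0.34 SE, limma adjusted p = 0.548), and 1369 bases of its locus lie over *ostd-1* (mean 67.2 TPM) on the opposite strand. *unc-13*, the Munc13 priming factor without which worm synapses barely release, was below the filter, at 0.710, 0.473 and 0.180 TPM in antimycin A and 1.09, 0.324 and 0.344 TPM in EtOH. Levels within the release machinery thus ran, in each library, from *unc-13* at the bottom to *snb-1* at the top.

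**Figure D2:**
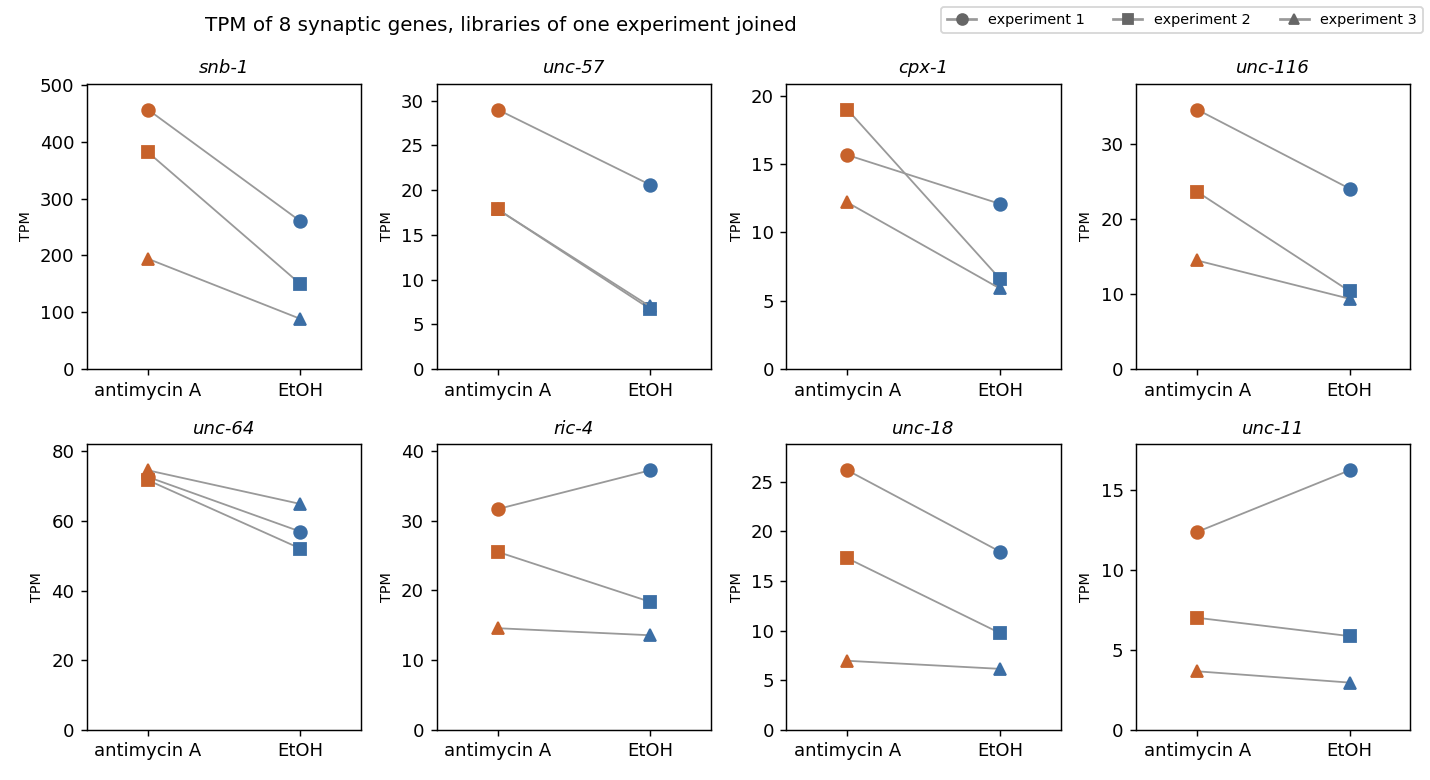
TPM of 8 genes, antimycin A left and EtOH right in each panel, with a line joining the libraries of 1 experiment and a linear axis from 0. All lines of *snb-1*, *unc-57*, *cpx-1*, *unc-116*, *unc-64* and *unc-18* are higher at the antimycin A end, while for *ric-4* (31.7 TPM in antimycin A, 37.3 TPM in EtOH) and *unc-11* (12.4 TPM in antimycin A, 16.2 TPM in EtOH) experiment 1 runs the other way.

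Among the vesicle and Rab3 cycle genes, *rab-3*, the small GTPase of synaptic vesicles, was the one with an appreciable level. It had 20.5, 15.99 and 6.08 TPM in antimycin A and 15.2, 10.05 and 5.36 TPM in EtOH. The ranges overlapped widely, although antimycin A was the higher in each experiment (log2 fold change 0.40 ± 0.48 SE, limma adjusted p = 0.681, blocked 0.122). *sng-1*, the vesicle membrane protein synaptogyrin, had 1.38, 0.785 and 0.771 TPM in antimycin A and 0.765, 1.55 and 1.04 TPM in EtOH (log2 fold change -0.10 ± 0.28 SE, limma adjusted p = 0.889). *aex-3*, the exchange factor that loads RAB-3 with GTP, was below the filter. Its values were 1.36, 1.14 and 0.586 TPM in antimycin A and 0.493, 0.534 and 0.350 TPM in EtOH, and the groups did not overlap. How often groups of genes below the filter are separate was not counted. *snn-1*, the vesicle-coating protein synapsin, was below it too, with 1.13, 0.334 and 0.499 TPM in antimycin A and 0.480, 0.178 and 0.193 TPM in EtOH. *aex-3* reached 1 TPM in 2 libraries and *snn-1* in 1, where the filter asks for 3.

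The active zone scaffolds were low throughout, and none passed a test with group alone or with the block. *elks-1*, the ELKS scaffold, was the highest, with 4.12, 2.89 and 1.96 TPM in antimycin A and 3.76, 2.09 and 2.14 TPM in EtOH (log2 fold change 0.12 ± 0.35 SE, limma adjusted p = 0.893). *syd-2*, the liprin-alpha that organises active zone assembly, had 1.39, 1.04 and 0.394 TPM in antimycin A and 1.76, 0.945 and 0.629 TPM in EtOH (log2 fold change -0.12 ± 0.31 SE, limma adjusted p = 0.877). In both genes the groups overlapped almost wholly. *rimb-1*, the RIM-binding protein, had 1.48, 0.970 and 0.430 TPM in antimycin A and 1.97, 0.634 and 0.365 TPM in EtOH, below the filter. *unc-10*, the RIM scaffold that links Rab3 vesicles to the active zone, had 0.470, 0.595 and 0.289 TPM in antimycin A and 0.260, 0.268 and 0.146 TPM in EtOH. The groups of *unc-10*, also below the filter, did not overlap, and no share over such low genes was counted. Without the filter its limma adjusted p was 0.262 with group alone and 0.145 with the block. The kinase *sad-1*, which acts in presynaptic assembly, was listed at 0 to 0.341 TPM in antimycin A and at 0.173 to 0.515 TPM in EtOH. *syd-1*, a RhoGAP-like assembly factor upstream of *syd-2*, was listed at 0 in 4 libraries and at most at 0.172 TPM. *cla-1*, the giant scaffold clarinet, was the lowest of the set, at 0 to 0.0240 TPM in antimycin A and at 0.00233 to 0.0101 TPM in EtOH.

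Of the calcium channel subunits, *unc-36*, the alpha2/delta subunit, was the one that passed the filter, with 1.48, 0.893 and 1.59 TPM in antimycin A and 1.29, 1.34 and 1.27 TPM in EtOH. The antimycin A libraries lay on both sides of the EtOH libraries (limma adjusted p = 0.999). *egl-19*, the L-type channel that also serves muscle, had 0.792, 1.29 and 0.523 TPM in antimycin A and 0.719, 0.627 and 0.879 TPM in EtOH. *unc-2*, the presynaptic P/Q-type channel, was at 0.0791, 0.149 and 0.0135 TPM in antimycin A and at 0.111, 0.0469 and 0 TPM in EtOH. The pore-forming subunit of release sites was thus among the 4 genes of the set that averaged under 0.1 TPM.

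Among the 7 endocytosis genes, *unc-57* (I:4675135-4679409), the endophilin that bends the membrane and recruits synaptojanin, differed most between the groups. It had 29.0, 17.9 and 17.9 TPM in antimycin A and 20.6, 6.71 and 6.99 TPM in EtOH. The groups overlapped because EtOH replicate 1 exceeded antimycin A replicates 2 and 3. The means were 21.6 ± 6.44 TPM in antimycin A and 11.4 ± 7.95 TPM in EtOH (SD, n = 3 each), with a log2 fold change of 1.00 ± 0.43 (SE). The limma adjusted p was 0.139 with group alone and 0.000157 with the block, and between 1.43e-05 and 0.00727 in blocked fits without 1 experiment.

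The partners of endophilin did not pass either test. *unc-26*, the synaptojanin phosphatase that acts with endophilin in uncoating, had 3.19, 1.13 and 1.26 TPM in antimycin A and 3.13, 0.945 and 0.912 TPM in EtOH (log2 fold change 0.13 ± 0.40 SE, limma adjusted p = 0.898). *dyn-1*, the dynamin that severs the vesicle neck, had 8.92, 6.20 and 2.62 TPM in antimycin A and 6.65, 3.58 and 2.96 TPM in EtOH (log2 fold change 0.30 ± 0.45 SE, limma adjusted p = 0.753). For both genes the spread among the 3 libraries of a group was wider than the difference of the means. *unc-11*, the AP180 adaptor that retrieves synaptobrevin, had 12.4, 6.99 and 3.65 TPM in antimycin A and 16.2, 5.85 and 2.94 TPM in EtOH (log2 fold change 0.03 ± 0.57 SE, limma adjusted p = 0.986). *itsn-1*, the intersectin scaffold, had 15.1, 11.4 and 8.58 TPM in antimycin A and 15.8, 7.20 and 8.06 TPM in EtOH (limma adjusted p = 0.799). *ehs-1*, its Eps15 partner, had 9.24, 5.18 and 5.19 TPM in antimycin A and 9.82, 4.62 and 5.63 TPM in EtOH (limma adjusted p = 0.990). These 3 adaptor genes were each lower in antimycin A in experiment 1 and higher in experiment 2. The stonin gene *unc-41*, a synaptotagmin adaptor, was listed at 0 to 0.104 TPM in antimycin A and at 0.0171 to 0.168 TPM in EtOH.

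The kinesins were unequal in level. *unc-116* (III:8351249-8355174), the heavy chain of conventional kinesin, had 34.6, 23.6 and 14.5 TPM in antimycin A and 24.0, 10.4 and 9.35 TPM in EtOH. The groups overlapped, and in each experiment the antimycin A library was the higher. The means were 24.2 ± 10.1 TPM in antimycin A and 14.6 ± 8.20 TPM in EtOH (SD, n = 3 each), a log2 fold change of 0.73 ± 0.42 (SE) with a limma adjusted p of 0.285 with group alone and 0.00226 with the block. Without experiment 2 the blocked fit no longer called it (adjusted p = 0.0586). *unc-104*, the KIF1A motor that carries synaptic vesicle precursors, had 1.76, 1.73 and 1.35 TPM in antimycin A and 1.90, 0.924 and 0.672 TPM in EtOH (log2 fold change 0.31 ± 0.30 SE, limma adjusted p = 0.591). The vesicle-specific motor was thus at least 10.7 times lower than the conventional heavy chain in each library, and 445 bases of its locus lie over the pseudogene *C52E12.11* (mean 11.9 TPM) on the opposite strand.

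Within experiments, 9 of the 20 tested genes were higher in antimycin A in all 3 and 0 were lower in all 3, against 43.2% and 20.1% of all tested genes. The 9 were *unc-18*, *unc-64*, *snb-1*, *cpx-1*, *tom-1*, *rab-3*, *unc-26*, *unc-57* and *unc-116*. The count is near the background share. The median log2 fold change of the 20 was 0.30, with 16 positive and 4 negative values from -0.12 to 1.09, beside a median of 0.21 and 65.2% positive over all tested genes. By role the medians were 0.48 for the 7 tested release genes, 0.17 for the 6 endocytosis genes, 0.15 for *rab-3* and *sng-1*, -0.00127 for the active zone genes *elks-1* and *syd-2*, and 0.52 for the 2 kinesins, while the 1 tested channel gene, *unc-36*, had -0.000186. Experiment 2 gave the widest differences, with a median of 0.55 for the members and 0.39 for all tested genes. Experiment 1 gave 0.35 for the members and 0.11 for all tested genes, and experiment 3 gave 0.16 for the members and 0.15 for all tested genes.

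**Figure D3:**
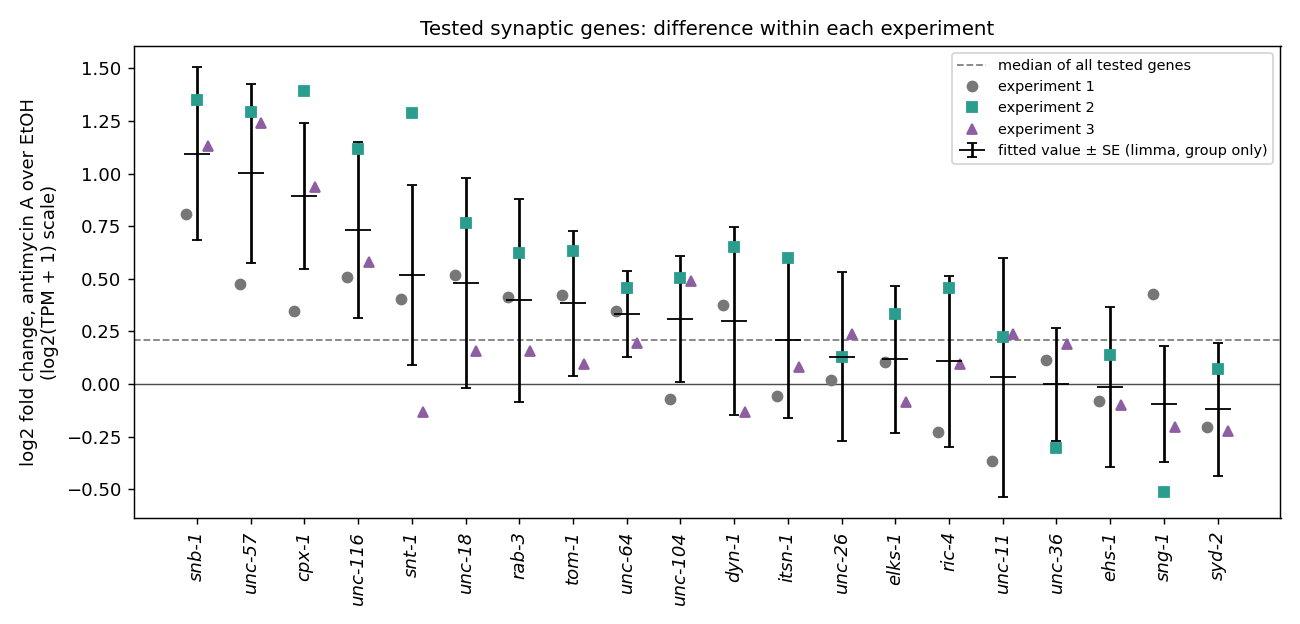
Difference in log2(TPM + 1), antimycin A minus EtOH, for each tested gene in experiments 1, 2 and 3, with the fitted value and its SE from limma with group alone as a bar and the median of all tested genes as a dashed line at 0.21. *snb-1*, *unc-57*, *cpx-1* and *unc-116* have all 3 points above 0, and the adaptors *unc-11* and *ehs-1* have points on both sides.

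Directions depended on how libraries were put on a common scale. The median of all tested genes was 0.21 on deposited TPM, -0.03 after median-of-ratios scaling, -0.09 after quantile normalization and -0.43 after centring on pan-neuronal markers outside the set. The members' median moved with it, to 0.05, 0.01 and -0.33, and stayed between 0.08 and 0.10 above that of all genes. The fold changes of *snb-1*, *unc-57*, *cpx-1* and *unc-116* kept a positive sign under each of these scalings and one to protein-coding genes alone. Their smallest values, all after centring on pan-neuronal markers, were 0.46, 0.37, 0.26 and 0.10, and none then passed the blocked test (limma adjusted p = 0.0860, 0.118, 0.275 and 0.678). Relative to the pan-neuronal markers, *syd-2* was called lower with group alone (log2 fold change -0.76, limma adjusted p = 0.0430). The same centring called 2626 of all 11099 tested genes lower.

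Levels also differed between experiments. Replicate 1 was the highest library of both groups for 15 of the 20 tested members (75.0%), against 53.8% of all tested genes. The median log2 difference of replicate 1 over replicate 3 was 0.84 in antimycin A and 0.91 in EtOH for the members, and 0.59 in antimycin A and 0.49 in EtOH for all tested genes. *unc-64* did not share this: its highest library was replicate 3 in both groups. *unc-18* over *unc-64*, the ratio of the Munc18 message to that of its syntaxin, was 0.3601, 0.241 and 0.0932 in antimycin A and 0.316, 0.187 and 0.0946 in EtOH. It differed less between the libraries of an experiment than between experiments 1 and 3 (a ratio chosen after the values were seen).

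Levels went with the length of the annotated locus, a property not used to pick the genes. The 8 members with a locus over 12 kb averaged 0.0100 to 1.56 TPM (median 0.662), and 2 of them were tested. The 8 with a locus under 5 kb averaged 1.05 to 255 TPM (median 12.98), and all 8 were tested. Spearman's rho between locus length and mean TPM was -0.68 over the 31 members, -0.66 without *snb-1* and *unc-64*, and -0.45 over 59 related synaptic genes, against -0.01 over 16702 protein-coding genes above 0. These are descriptions across genes that share libraries. The shortest abundant locus was that of *snb-1*, 940 bases, and the longest were those of *unc-2*, 52609 bases (X:2710918-2763526), and *cla-1*, 39304 bases (IV:7588931-7628234). Introns count in these lengths, so they are not transcript lengths.

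**Figure D4:**
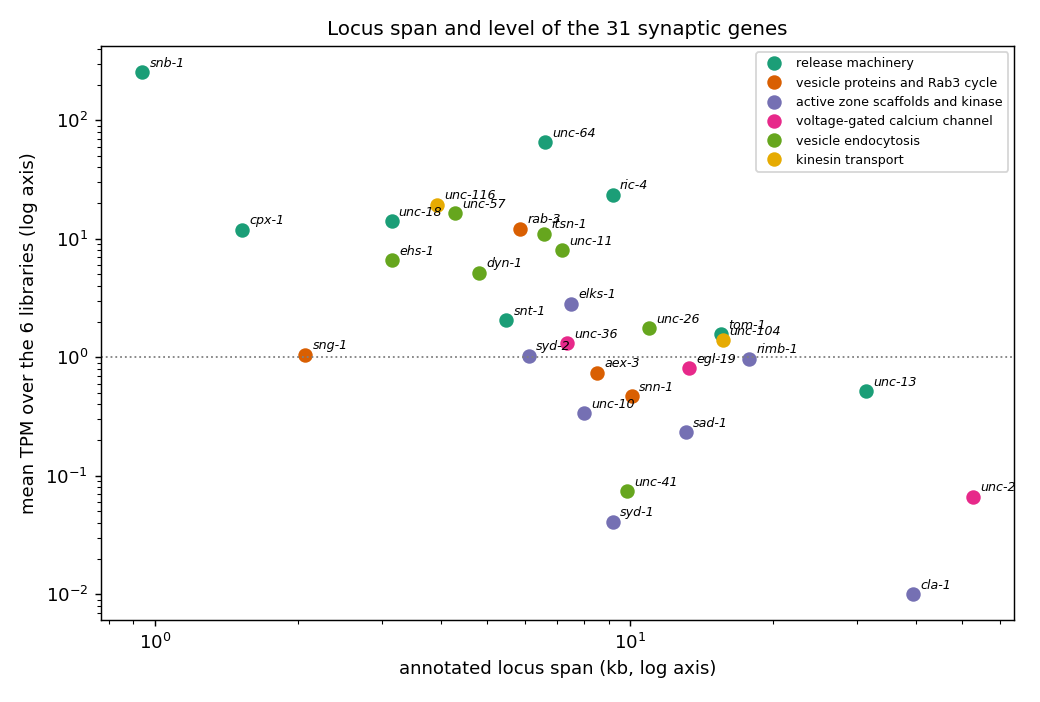
Length of the annotated locus against mean TPM over the 6 libraries, both on log axes, for the 31 genes, coloured by role, with a dotted line at 1 TPM. They run from *snb-1* at the upper left to *unc-2* and *cla-1* at the lower right (Spearman's rho -0.68).

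A list of 59 related synaptic genes that are no members gave the wider pathway. Of 43 tested, 5 were called higher and 0 lower by limma with group alone, while the blocked fit called 15 higher and 0 lower. These counts are near the shares of all tested genes called higher, 14.2% with group alone and 29.6% with the block. The list had a median log2 fold change of 0.33. After centring on pan-neuronal markers the counts were 1 higher and 4 lower with group alone. Of all 11099 tested genes, 850 were then higher and 2626 lower. Of 8 tested relatives of the fusion machinery, 3 were called higher with group alone and 6 with the block (median log2 fold change 0.82), beside the same shares of 14.2% and 29.6%, and no test set this role against the others. *snb-2*, a synaptobrevin-related gene, rose to 198, 189 and 188 TPM in antimycin A, against 104.01, 93.7 and 73.1 TPM in EtOH (log2 fold change 1.09 ± 0.20 SE, limma adjusted p = 0.00369). Its fold change was that of *snb-1*, but its libraries within a group lay far closer together and the groups did not overlap. *snap-1*, the alpha-SNAP that helps take spent SNARE complexes apart, rose to 115.97, 95.8 and 85.0 TPM in antimycin A, against 60.4, 43.2 and 37.8 TPM in EtOH (log2 fold change 1.07 ± 0.24 SE, limma adjusted p = 0.0112). *snt-4*, another synaptotagmin, rose to 34.2, 45.3 and 24.9 TPM in antimycin A, against 16.2, 21.5 and 12.7 TPM in EtOH (log2 fold change 1.00 ± 0.31 SE, limma adjusted p = 0.0438). Both groups were separate in these 2 genes as well. *nsf-1*, the ATPase that works with alpha-SNAP, *snt-3* and *aex-6*, a Rab27 gene, passed with the block alone (adjusted p = 0.00111, 0.00673 and 0.00655).

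Of 9 axonal transport genes, all tested, 2 were called higher with group alone and 4 with the block, beside 14.2% and 29.6% of all tested genes. *unc-51*, the ULK-type kinase of axon growth and autophagy, rose to 40.9, 26.3 and 29.9 TPM in antimycin A, against 13.7, 8.12 and 8.40 TPM in EtOH (log2 fold change 1.60 ± 0.31 SE, limma adjusted p = 0.00424). *klc-2*, the light chain that pairs with UNC-116, rose to 45.1, 39.0 and 23.3 TPM in antimycin A, against 19.1, 13.9 and 9.60 TPM in EtOH (log2 fold change 1.27 ± 0.34 SE, limma adjusted p = 0.0233). In both genes each antimycin A library exceeded each EtOH library. *unc-16* and *arl-8*, a kinesin adaptor and a GTPase of vesicle precursor transport, passed with the block alone (adjusted p = 0.0347 and 0.000968).

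The other roles had no gene called with group alone, where 14.2% of all tested genes were called higher. The block called 29.6% of all tested genes higher. With the block, 3 of 8 adhesion and synapse formation genes were called higher: *nlg-1*, neuroligin, with 3.78, 4.21 and 1.67 TPM in antimycin A and 2.22, 1.04 and 0.870 TPM in EtOH, *ptp-3*, a LAR-type phosphatase, and *lin-7*, a PDZ scaffold (adjusted p = 0.0111, 0.0234 and 0.00250). Of the channel group, 2 genes were tested. *calf-1*, an endoplasmic reticulum protein that helps bring UNC-2 to synapses, had 3.91, 6.16 and 2.43 TPM in antimycin A and 1.77, 2.35 and 1.22 TPM in EtOH (blocked adjusted p = 0.00582), while *ccb-1*, the beta subunit, passed neither fit (blocked adjusted p = 0.137). Of 8 tested G protein genes, *eat-16*, an RGS protein, passed with the block (adjusted p = 0.0115) and *egl-10*, another, did not (0.0672). None of the 8 clathrin and adaptor genes passed either fit; *aps-2*, the small chain of AP2, averaged 127 ± 14.4 TPM in antimycin A and 105 ± 5.87 TPM in EtOH (SD, n = 3 each), and *sdpn-1*, syndapin, 10.6 ± 3.55 TPM in antimycin A and 13.04 ± 1.80 TPM in EtOH. None of the 4 vesicular transmitter transporters passed the filter: *unc-17*, for acetylcholine, had 0.778, 0.974 and 0.475 TPM in antimycin A and 0.733, 0.522 and 0.603 TPM in EtOH, and *eat-4*, for glutamate, 1.08, 0.937 and 0.233 TPM in antimycin A and 0.568, 0.288 and 0.122 TPM in EtOH.

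Markers of neurons and of other tissues moved between the groups too. Their counts stand beside 14.2% of all tested genes called higher and 6.47% called lower with group alone. With the block these shares were 29.6% and 13%. Of 12 pan-neuronal markers outside the set, 10 were tested, 3 were called higher with group alone (*ida-1*, *sbt-1* and *casy-1*), and the blocked fit called 6 higher and 1, *unc-44*, lower, with a median log2 fold change of 0.82. They summed to 446, 532 and 439.5 TPM in antimycin A and to 258, 233 and 223 TPM in EtOH, ranges that did not overlap. Most of each sum came from *sbt-1*, *casy-1* and *egl-21*. The 10 tested markers were split, with 7 positive and 3 negative log2 fold changes. *ric-19* (0.08), *unc-119* (-0.01) and *maco-1* (-0.12) lay near no change and passed neither fit, and *unc-44* had -0.67. *sbt-1*, the 7B2 chaperone of neuropeptide processing, rose to 199, 223 and 197 TPM in antimycin A, against 93.2, 91.4 and 90.9 TPM in EtOH (limma adjusted p = 0.00143). *casy-1*, calsyntenin, rose to 106, 166 and 142 TPM in antimycin A, against 41.8, 65.6 and 70.3 TPM in EtOH (limma adjusted p = 0.00901). Neither gene's groups overlapped. *egl-21*, a neuropeptide processing enzyme, had 57.1, 60.1 and 45.3 TPM in antimycin A and 45.8, 32.4 and 25.7 TPM in EtOH (limma adjusted p = 0.119, blocked 0.00184). The pan-neuronal markers *rgef-1* and *unc-31* stayed below 1 TPM in every library. Of 9 intestinal markers, 6 were called lower and 1 higher (*ges-1*) with group alone, and 8 lower and 1 higher with the block. Their sums were 6276, 4124 and 2684 TPM in antimycin A and 12704, 12215 and 12358 TPM in EtOH. The 4 gonadal sheath markers had 0 calls with group alone, and 2, *inx-8* and *inx-9*, were called higher with the block (limma adjusted p = 0.0206 and 0.000751), with sums of 4936, 6545 and 4890 TPM in antimycin A and 2794, 4358 and 3981 TPM in EtOH. Of the octopamine neuron markers beside *tbh-1*, *tdc-1*, which makes tyramine, had 22.3, 14.9 and 11.6 TPM in antimycin A and 23.6, 8.60 and 8.33 TPM in EtOH. *cat-1*, the vesicular monoamine transporter, had 2.62, 3.57 and 1.59 TPM in antimycin A and 1.76, 1.37 and 1.01 TPM in EtOH. Neither was called by either fit. The part of these shifts in the members' values was not tested.

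Body wall muscle, pharynx, germline, glia and other transmitter class markers had 6, 2, 9, 1 and 3 tested genes and 0 calls with group alone. Of all tested genes, 14.2% were called higher and 6.47% lower with group alone. The block called 29.6% of them higher and 13% lower. With the block, the muscle troponin gene *pat-10* was called lower (2259, 2011 and 1515 TPM in antimycin A and 3446, 2537 and 2267 TPM in EtOH, limma adjusted p = 0.0197), and the oocyte yolk receptor gene *rme-2* was called higher (56.0, 29.8 and 22.2 TPM in antimycin A and 56.3, 15.5 and 12.1 TPM in EtOH, limma adjusted p = 0.0137). Hypodermis markers had 3 tested genes with 1 called higher (*dpy-7*) and 1 lower (*col-19*). Markers of other transmitter classes summed to 4.67 to 8.29 TPM in antimycin A and 2.78 to 7.03 TPM in EtOH, and neither coelomocyte marker reached 1 TPM.

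**Figure D5:**
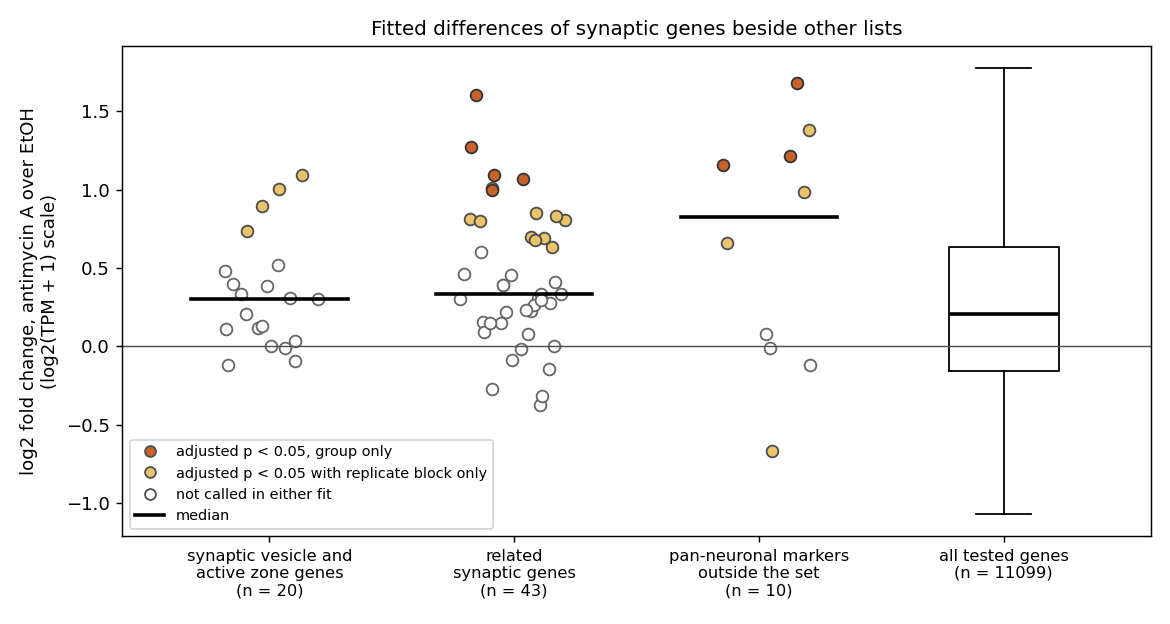
Log2 fold change, antimycin A over EtOH, of every tested gene of the set, of the related synaptic genes and of the pan-neuronal markers, 1 point a gene, filled by the fit that called it at an adjusted p under 0.05, with the list's median as a bar. The box at the right shows the quartiles and the whiskers the 5th to 95th percentile of all tested genes. The medians are 0.30, 0.33 and 0.82, beside 0.21 for all tested genes.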

How the data were processed

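The authors deposited TPM of every gene in the 6 libraries as 1 table, which also holds the authors' log2 ratio, p-value and q-value per gene. The submitters' processing notes name genome build WBcel235 and the tools bcl2fastq 2.20 and Trimmomatic 0.36, HISAT2 without a version, StringTie 2.1.4 and DESeq2 1.28.1. The strand setting is not given in the sources used here. The authors' placeholder of 1e-04 TPM for no signal was set to 0. Tables of single pairs repeat the TPM and were not used. Columns of other samples numbered 0.

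The deposited values are TPM, so the test planned for counts was not used. A log2(TPM + 1) value (pseudocount 1) was fitted by limma 3.58.1 in R 4.3.3 with its trend option, group being the only term. The fit took the 11099 genes for which 3 or more libraries reached 1 TPM, and p values were adjusted over all of them by the Benjamini-Hochberg method. Other steps used Python 3.11.15 with pandas 2.3.3, numpy 2.4.6 and matplotlib 3.10.9. Per the design text each experiment held both conditions. Same-numbered libraries deviated together from their group means (correlations of 0.679, 0.307 and 0.586 over 11099 genes), so the replicate numbers pair the libraries. The planned fit leaves this out, and a fit with a replicate block is given beside it where it changes a call.

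The members and the lists set beside them were chosen with earlier results of these data known. Named genes are all members, the 2 smallest p values of each role among related genes, the 3 highest genes of a marker list (most given as sums), *tbh-1*, *rpl-22* and *inx-8*. Genes called in either fit, overlapping genes and transmitter transporters were named after their values were seen. The symbols *nca-1* and *opt-2* were not matched. Simulated data for antimycin A over EtOH with 11099 genes, with noise drawn independently for each library, held 50 changed genes of each size. Of these, 0 were found for a log2 change of 0.5, 4 for 1, 29 for 2 and 44 for 4, and 3.75% of calls were false. Alternatives were other scalings, pseudocounts and filters, the replicate block, and libraries or pairs left out.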

Additional observations from a re-analysis of the deposited data

How the results depend on the processing

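Over all tested genes 1579 were higher and 718 lower. Median-of-ratios scaling gave 1394 higher and 1185 lower, quantile normalization 1423 higher and 1398 lower, and centring on pan-neuronal markers 850 higher and 2626 lower. The replicate block gave 3282 higher and 1442 lower, and 3141 and 1388 with a pseudocount of 0.1. With the block and a scaling, 2283 genes (median-of-ratios), 2578 (quantile) and 4699 (pan-neuronal centring) were lower. Leaving out a library or a pair gave 391 to 2059 higher and 162 to 705 lower with group alone, and 2164 to 2669 higher and 1013 to 1217 lower with the block (lowest and highest; the block without replicate 1 gave 2629 higher and without replicate 2 gave 1165 lower).

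Of the members, 0 were higher in the group-only fit. The block gave 4, also with median-of-ratios scaling or a pseudocount of 0.1, and changed no other member's call. It gave 1, *snb-1*, without the filter on low values, and 3 with quantile normalization, where *unc-116* had a limma adjusted p of 0.0575. Leave-outs gave 0 to 6 higher and 0 lower, the 6 being with the block and without experiment 3. Lower members were 1 after pan-neuronal centring, where 2626 of 11099 tested genes were lower, and 5 with the block added, where 4699 were. These 5 were *ehs-1*, *ric-4*, *sng-1*, *syd-2* and *unc-11*. After that centring *ric-4* and *unc-11* turned to log2 fold changes of -0.53 and -0.60. The members' median of 0.30 became 0.0516 with median-of-ratios scaling, 0.00932 with quantile normalization and -0.33 with pan-neuronal centring, with or without the block, and 0.0725 to 0.56 over leave-outs. Without the block, limma adjusted p ranged over the alternatives from 0.00499 to 0.492 for *snb-1*, from 0.00468 to 0.636 for *unc-57*, from 0.0198 to 0.798 for *cpx-1* and from 0.0328 to 0.898 for *unc-116*.

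Of the related genes, 5 were higher and 0 lower with group alone. Without the filter 3 were higher (5 with the block), and with pan-neuronal centring 1 was higher and 4 lower (2 and 9 with the block). That centring called 2626 of 11099 tested genes lower with group alone and 4699 with the block. The block gave 15 higher, also with a pseudocount of 0.1, 12 with median-of-ratios scaling and 8 with quantile normalization, each of these scalings with 4 lower. Leave-outs gave 0 to 16 higher and 0 lower. The cause of these shifts was not tested. Pan-neuronal centring subtracts a marker level that was on average higher in the antimycin A libraries.

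TPM hold no depth, so it is not known how many reads stand behind the 11 members below the filter, none of which was called in the fits without it. With 3 libraries a group, changes near the size of the members' median were below what the group-only fit recovered on simulated data. The simulated data held 200 changed genes and no deviation shared within an experiment. They therefore do not measure recovery in these data or with the block.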
